A study of Arabidopsis thaliana with 12 samples.

Results

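RNA signals from 57 probes, each for a different gene, ranked higher in wild-type Arabidopsis thaliana plants given 1 h of light after the night. Their lowest rank within the light arrays exceeded their highest rank within the arrays of plants kept dark overnight. A second probe of 1 of these genes, AT2G25870, changed in the other direction. The plants were wild type, ecotype Columbia 0, a common laboratory strain of this small flowering plant, and no mutant, transgene or chemical was part of either group. Arrays were made from total RNA of 12 samples, 6 dark and 6 light, and the sources used here give no tissue, plant age or time of harvest. The labels do not say whether samples of a group came from separate plants, so the spread below may be technical, and light cannot be told apart from time after the night or from handling by group.

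The genes were chosen from these values. Of 3439 probes on the array, 692 matched exactly 1 gene in the platform annotation, and 494 of those had a deposited value above 0 on all 12 arrays. All probes were ranked within each array from dimmest to brightest. A probe was kept where its lowest rank in the 6 light arrays exceeded its highest rank in the 6 dark arrays. This held for 67 of the 494 probes (13.6%), and 10 of them belonged to 15 photosynthesis and plastid genes left out by name, such as PSAN and PRK. The 57 probes left stand for 57 different genes. The opposite separation, all light ranks below all dark ranks, was seen for 74 of the 494. Because the ranks of both groups chose the genes, their light and dark values are a description and carry no test.

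Light after a night acts on plant transcripts through photoreceptors, through the chloroplast and together with the circadian clock, and many transcripts shift within the first hour. An array reads each transcript as the brightness of a spot, and the rank of a spot within its array is not altered by the overall brightness of that array. A gene that gains rank has therefore risen relative to other transcripts on the array, which is a different statement from a gain in its own signal.

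The gap between the groups, the lowest light minus the highest dark percentile rank, ran from 0.0582 to 19.0 percentile points with a median of 3.02. It was over 10 points for 10 genes and under 1 point for 12. The genes just inside the rule were AT5G38360 with a gap of 0.0582, mTERF9 with 0.0872 and AT3G51510 with 0.145 points. Just outside it, CYN had its highest dark and lowest light rank at the same place (89.7), and AT3G45770 and AT3G32930 overlapped, with gaps of -0.0291 and -0.145 points. The edge of the group is thus set by steps of a few ranks, and the plot of ranks by gene shows narrow and wide gaps along 1 continuous range.

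**Figure D1:**
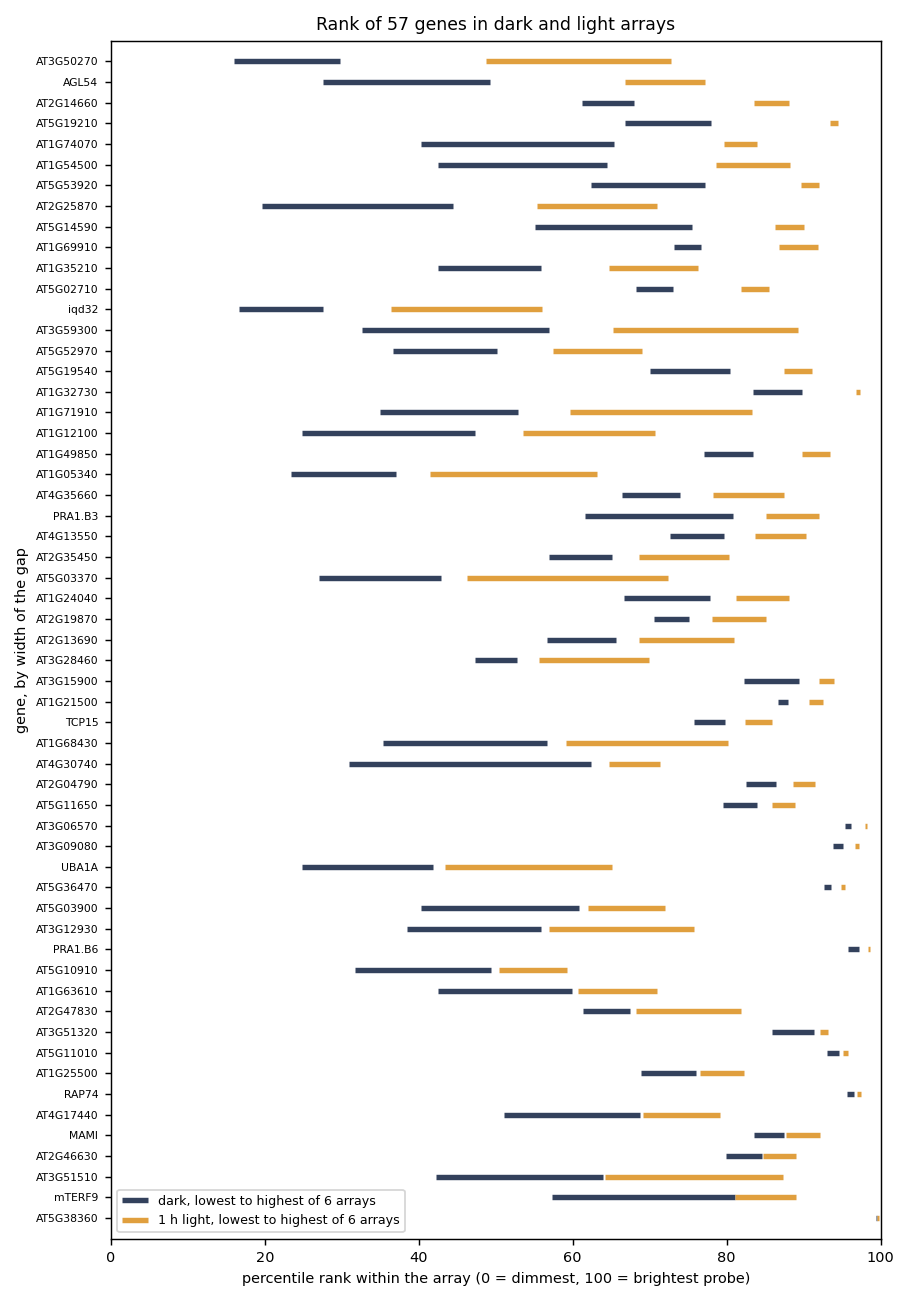
Percentile rank within the array of each of the 57 genes (x axis, 0 to 100), drawn as the range over 6 dark arrays and the range over 6 light arrays and ordered by the gap between them. Gaps narrow from 19.0 points at the top (AT3G50270) to 0.0582 points at the bottom (AT5G38360).

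To compare levels, the arrays were quantile normalized, and scaled intensities and log2 changes (light minus dark) below are on that scale. SE is from limma, a linear model with a shared estimate of spread, fitted to all 2966 probes with enough signal. The fit had n = 6 arrays per group and did not pair arrays by replicate number. The 57 genes were all among the 2966 probes. Their log2 changes ran from 0.32 to 2.51 with a median of 0.90, against a median of -0.01 over all 2966 probes. The change was over 2-fold for 25 of them, which 8.3% of the 494 single-gene probes reached, between 1.5-fold and 2-fold for 17 and under 1.5-fold for 15.

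The gene table gave a name to 9 of the 57, and they fall into transcription and RNA factors, a membrane trafficking family and single genes of other kinds. Among the transcription factors, AGL54 belongs to the MADS-box family of DNA-binding proteins, which is best known for flower development. Its scaled intensity had a lowest, median and highest value of 0.0989, 0.197 and 0.235 in the dark and of 0.398, 0.458 and 0.554 in light (log2 change 1.36, SE 0.20). Its gap of 17.6 points was the second widest of the 57.

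TCP15, a TCP-type factor that acts on cell division and growth, was at 0.528, 0.573 and 0.611 in the dark and at 0.690, 0.752 and 0.830 in light (log2 change 0.40, SE 0.09). The groups did not overlap on this scale, but they did overlap in the deposited values, where the dark arrays ran from 0.576 to 0.775 and the light arrays from 0.523 to 0.742. The gain of TCP15 was therefore one of rank, and its own deposited signal was about level (log2 change -0.073 as deposited).

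RAP74 encodes the large subunit of TFIIF, a general factor of RNA polymerase II. It was bright, at 2.68, 2.96 and 3.44 in the dark and at 3.89, 4.92 and 5.06 in light (log2 change 0.66, SE 0.10). Light replicate 1 gave the value of 3.89, and the other 5 light arrays lay at 4.71 or above. As deposited the groups overlapped, with 2.84 to 4.41 in the dark and 3.40 to 4.46 in light, and the log2 change of RAP74 was 0.21, against 0.32 with median centring. The gap of RAP74 was 0.349 percentile points, between dark replicate 4 and light replicate 1.

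UBA1A, an RNA-binding protein named for its partner UBP1, was dim. It was at 0.0820, 0.150 and 0.186 in the dark and at 0.197, 0.251 and 0.379 in light (log2 change 1.00, SE 0.23). Light replicates 1 and 2 were highest, at 0.379 and 0.377, and the other light arrays ended at 0.270. Without replicates 1 and 2 of both groups the log2 change of UBA1A was 0.61.

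Of the organelle factors, mTERF9 (AT5G55580) belongs to the mTERF family, named for mitochondrial transcription termination, whose plant members act in plastids and mitochondria. It was at 0.300, 0.361 and 0.644 in the dark and at 0.647, 0.769 and 1.03 in light (log2 change 1.01, SE 0.19). Dark replicate 4, at 0.644, lay next to the lowest light array, while the other dark arrays ended at 0.455. A single dark array thus set the narrow gap of this gene, and as deposited the groups overlapped with a log2 change of 0.61.

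Both genes of the PRA1 family with a probe of their own were in the group. PRA1 proteins, prenylated Rab acceptors, sit in membranes of the secretory pathway and bind Rab GTPases that steer vesicles. PRA1.B6 (AT5G07110) was among the brighter genes, at 2.80, 3.55 and 4.49 in the dark and at 8.99, 9.95 and 10.7 in light (log2 change 1.48, SE 0.13). PRA1.B3 (AT5G05380) was at 0.341, 0.600 and 0.640 in the dark and at 0.793, 1.01 and 1.35 in light (log2 change 0.90, SE 0.18). Dark replicate 1 was the low value of PRA1.B3, and the other 5 dark arrays lay between 0.569 and 0.640. The deposited values of PRA1.B6 did not overlap between the groups, whereas those of PRA1.B3 did, with a log2 change of 0.38 as deposited and 0.49 with median centring.

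The gene table lists 19 PRA1 loci, so most of the family had no probe of its own. A list of the family was made with the members known, and 4 further probes matched 2 or 3 PRA1 genes and no other gene. These probes were not used by the rule and did not move together. On 1 of them, which matched 2 relatives of the B type, the scaled intensity fell from a dark range of 0.779 to 1.32 (median 1.03) to a light range of 0.506 to 0.805 (median 0.629). Its log2 change was -0.73 (SE 0.15, limma, adjusted p = 0.0026), and it passed in all 22 alternative settings, with adjusted p up to 0.034. On a probe of 2 G-type relatives the scaled intensity was 0.166 to 0.263 in the dark (median 0.224) and 0.247 to 0.415 in light (median 0.300), so that the groups overlapped, with a log2 change of 0.48 (SE 0.16, limma, adjusted p = 0.031). That call was lost on the values as deposited (adjusted p = 0.25) and with consecutive replicate numbers averaged (adjusted p = 0.11), and 9 of the 22 settings in all did not pass. The other 2 probes had negative log2 changes, opposite in sign to PRA1.B3, in all 22 settings, and did not pass. On a probe of 2 further B-type relatives the log2 change was -0.46 (SE 0.28, limma, adjusted p = 0.21), and it passed only without dark replicate 4 (-0.69, adjusted p = 0.011). On a probe that matches PRA1.B3 and 2 relatives it was -0.28 (SE 0.12, limma, adjusted p = 0.096), and it passed in 3 settings, as deposited (-0.61, adjusted p = 0.019), with median centring (-0.50, adjusted p = 0.0058) and without light replicate 2 (-0.35, adjusted p = 0.031). Whether B-type genes differ from each other was not tested, since a probe with several genes cannot be assigned to one.

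Of the remaining named genes, iqd32 encodes a protein with the IQ domain, a motif that binds calmodulin. It was the dimmest of the 57 by mean rank, at 0.0241, 0.0679 and 0.0988 in the dark and at 0.154, 0.216 and 0.289 in light (log2 change 2.02, SE 0.37). Its dark values lay near the bottom of the scale, and the log2 change of iqd32 was 0.58 once values under the 25% quantile of positive values were set to that quantile. MAMI, a membrane-associated protein named for induction by mannitol, was at 0.729, 0.793 and 0.910 in the dark and at 0.933, 1.03 and 1.37 in light (log2 change 0.40, SE 0.11). Its gap was 0.320 points, and in the deposited values its light median of 0.793 lay below its dark median of 0.959.

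**Figure D2:**
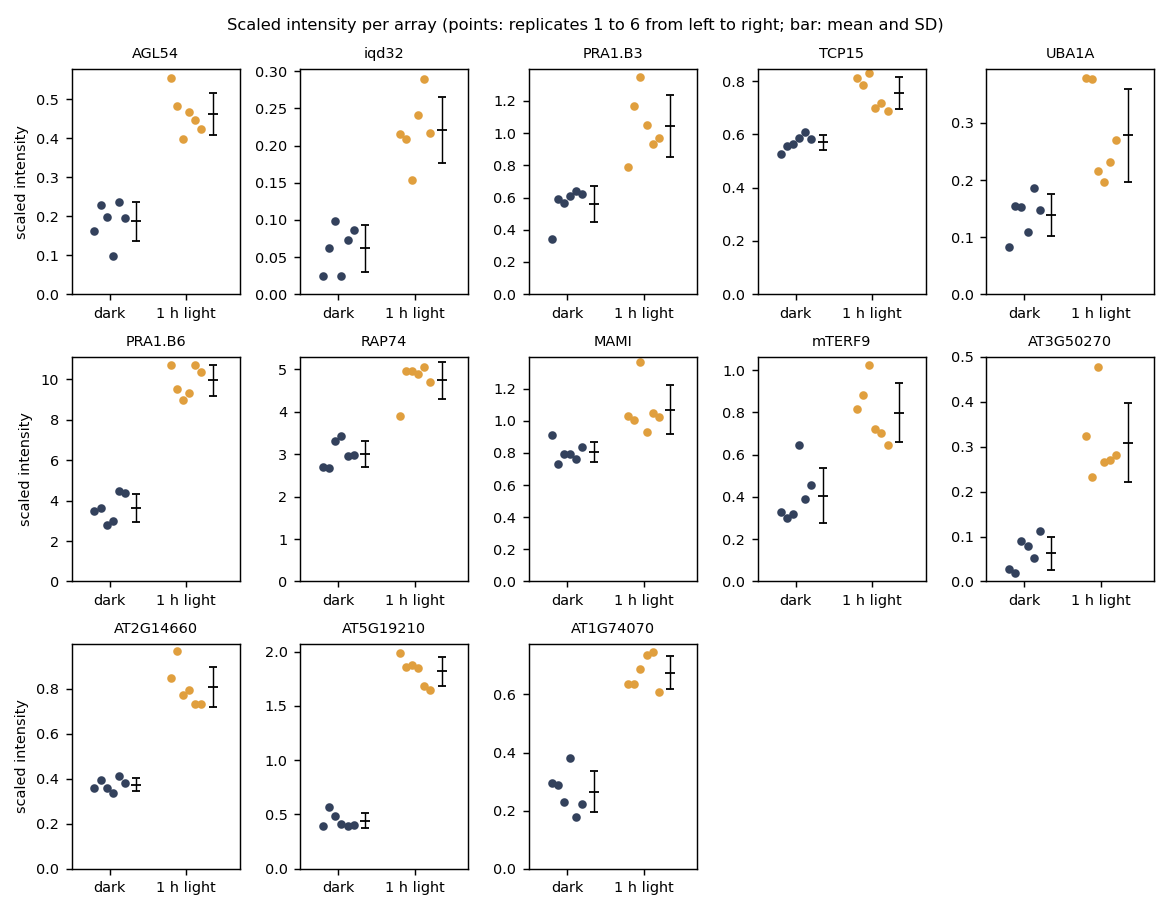
Scaled intensity (y axis, from 0, own scale per gene) on each array for the 9 named genes and the 4 further genes among the 5 with the widest gap. Points are single arrays in order of replicate number and bars are mean and SD (n = 6 per group), and no light point lies at or below a dark point of the same gene.

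Other genes of the same families with a probe of their own were few and were looked up after the members were known. IQD22 had a log2 change of -0.06 (SE 0.33), AGL103 one of -0.01 (SE 0.36) and AGL26 one of -0.13 (SE 0.09), and these 3 did not pass (limma, adjusted p = 0.90, 0.99 and 0.24). TCP15 and mTERF9 had no relative on a single-gene probe under these name searches. Lists for plastid protein import, plastid chaperones, FtsH and Deg proteases and markers of root, seed and pollen had no single-gene probe, so the tissue makeup of the samples could not be checked with them. The chaperone list held only 7 loci and left out Cpn60beta3 and Cpn60beta4. Those genes do have single-gene probes, with log2 changes of 0.46 and 0.72, and are not in the group. Lists for Clp protease with its adaptors and for UDP-glycosyltransferases had 1 each, AT1G68660 (log2 change 2.36, SE 0.62) and UGT74D1 (2.77, SE 0.73). Both separated light above dark by rank but were at 0 on 1 and 2 arrays, so the rule did not take them. The sizes of these changes depend on those values at the bottom of the scale.

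The other 48 genes are known here by locus alone, with no role given in the sources used. AT3G50270 had the widest gap of all, 19.0 points, and the highest log2 change, 2.51 (SE 0.41). Its scaled intensity was 0.0191, 0.0651 and 0.113 in the dark and 0.232, 0.276 and 0.478 in light. It was dim in the dark, with a lowest deposited value of 0.00746, so the size of its change depends on values near the bottom of the scale. With all values under the 25% quantile of positive values raised to it, the log2 change was 1.04.

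AT5G19210 combined a wide gap, 15.5 points, with a moderate level. It was at 0.398, 0.407 and 0.570 in the dark and at 1.64, 1.86 and 1.99 in light (log2 change 2.04, SE 0.11). AT2G14660, with a gap of the same width, was at 0.337, 0.370 and 0.412 in the dark and at 0.730, 0.783 and 0.967 in light (log2 change 1.11, SE 0.10). As deposited, the log2 change of AT2G14660 was 0.70.

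AT1G74070 was at 0.177, 0.259 and 0.381 in the dark and at 0.609, 0.661 and 0.745 in light (log2 change 1.38, SE 0.17), with a gap of 14.4 points. As deposited, its highest dark value of 0.483 reached above its lowest light value of 0.475. The next gaps, from 14.3 down to 10.2 points, were those of AT1G54500, AT5G53920, AT2G25870, AT5G14590 and AT1G69910, all over 2-fold.

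At the bright end, 9 of the 57 genes had a mean percentile rank above 90, and their gaps ended at 7.07 points. AT1G32730 had that widest gap and was at 0.724, 0.903 and 1.09 in the dark and at 3.80, 4.46 and 4.71 in light (log2 change 2.27, SE 0.11). AT3G06570 was at 2.49, 2.68 and 3.13 in the dark and at 6.50, 7.86 and 8.44 in light (log2 change 1.46, SE 0.10). AT3G09080 was at 1.72, 1.87 and 2.29 in the dark and at 3.66, 4.16 and 4.40 in light (log2 change 1.10, SE 0.10). The deposited values of these 3 genes did not overlap between the groups either, although the log2 change of AT3G09080 was 0.59 as deposited.

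AT5G38360 was the brightest of the 57 and had the narrowest gap. Counted from the brightest probe, it held places 17 to 22 in the dark arrays and places 8 to 15 in the light arrays. Its deposited value was 20.4, 24.0 and 28.5 in the dark and 47.2, 58.1 and 67.5 in light, so that the groups lay far apart in signal while only a few places apart in rank. Quantile normalization gives probes of 1 rank 1 value, and its log2 change was 0.80 (SE 0.12) on that scale against 1.27 as deposited. Dark replicate 1 and light replicate 2 were the arrays nearest to the other group.

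Over 2-fold, 20 of the 48 locus-only genes had log2 changes from 1.03 to 2.51. Besides those named above, they were AT1G35210, AT3G59300, AT1G71910, AT1G12100, AT1G49850, AT1G05340, AT5G03370 and AT3G51510. In AT3G59300 light replicate 5 stood at 1.05 against a light median of 0.413. Between 1.5-fold and 2-fold lay 15 genes with log2 changes from 0.59 to 0.99, namely AT5G38360, AT5G02710, AT5G52970, AT5G19540, AT4G35660, AT4G13550, AT1G24040, AT2G19870, AT3G15900, AT1G68430, AT4G30740, AT5G03900, AT3G12930, AT5G10910 and AT1G63610. The 13 genes under 1.5-fold had log2 changes from 0.32 to 0.58 and were AT2G35450, AT2G13690, AT3G28460, AT1G21500, AT2G04790, AT5G11650, AT5G36470, AT2G47830, AT3G51320, AT5G11010, AT1G25500, AT4G17440 and AT2G46630.

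The group leaned towards brighter probes. With the 494 single-gene probes split into 4 equal parts by mean rank, 4 of 124 in the dimmest part, 15 of 123 in each of the middle parts and 23 of 124 in the brightest part were in the group. Among the 8 genes with a mean percentile rank below 50, 7 were over 2-fold, and among the 9 above 90, 4 were. A probe with a wide spread between arrays can meet the rule only with a large change. These counts were not made for other probes of the same level, so they are not read as a trait of the group. The plot of change against level shows the group among the other single-gene probes.

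**Figure D3:**
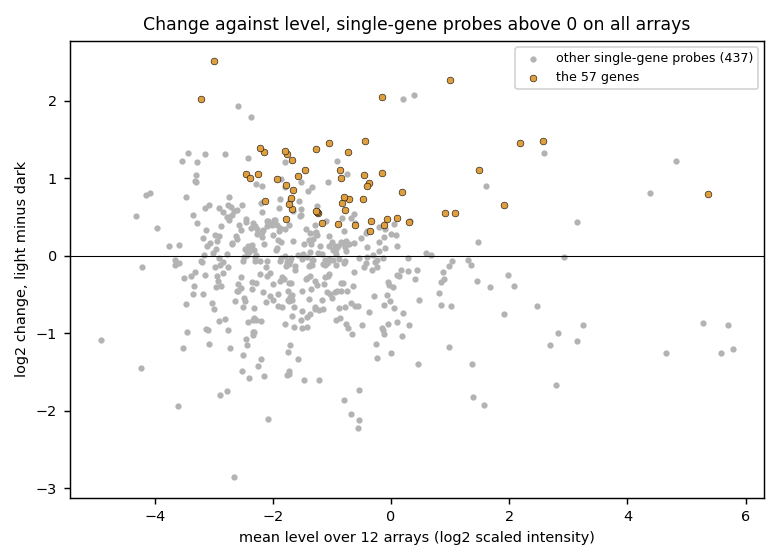
Log2 change, light minus dark (y axis), against the mean log2 scaled intensity over 12 arrays (x axis) for the 494 single-gene probes above 0 on all arrays. The 57 genes lie between 0.32 and 2.51 on the y axis, and the other 437 probes include some with changes as large, which did not meet the rule or were left out by name.

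One gene had a second probe of its own, and the probes disagreed. AT2G25870, for which the gene table also lists the older identifier AT2G25860, entered the group through a probe at 0.0468, 0.161 and 0.203 in the dark and at 0.284, 0.337 and 0.450 in light (log2 change 1.39, SE 0.32). Its other probe was at 0.418, 0.522 and 0.593 in the dark and at 0.134, 0.246 and 0.528 in light. There the log2 change was -0.92 (SE 0.31, limma, adjusted p = 0.034), lower in 4 of 6 light arrays than in any dark array, while light replicates 1 and 6 lay within the dark range. That call is fragile. It passed in 12 of 22 alternative settings, with adjusted p from 0.0038 to 0.071, and was lost without any 1 of 9 arrays, namely dark replicates 2 to 6 and light replicates 2 to 5, and without replicates 1 and 2 of both groups (adjusted p = 0.054). The direction was the same in all 22. No direction is therefore given for the transcripts of AT2G25870 as a gene, and the part of it that each probe covers is not known here.

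**Figure D4:**
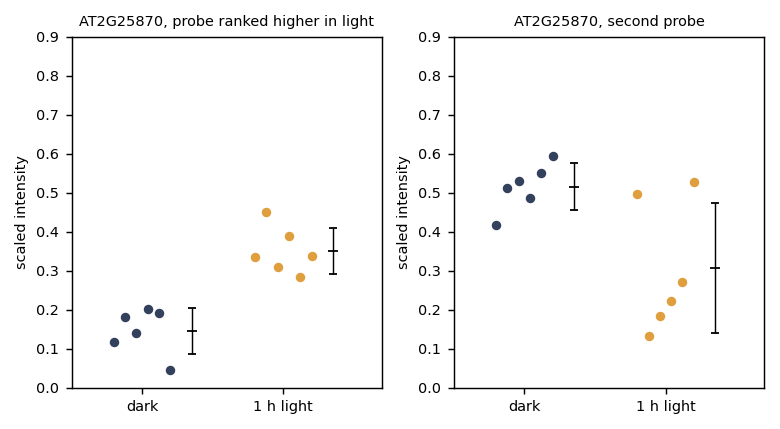
Scaled intensity (y axis) on each array for the 2 probes that match AT2G25870 alone, with points in order of replicate number and bars for mean and SD (n = 6 per group). The probe in the group is higher in all 6 light arrays, and the second probe is lower in 4 of them and within the dark range in light replicates 1 and 6.

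A further 9 probes matched a gene of the group together with other genes. None of these 9, nor the second probe of AT2G25870, separated light above dark by rank, against 14.8% of all 2450 probes above 0 on all arrays, and 8 of the 10 were above 0 throughout. Of the 10 probes 9 had enough signal to be tested, and only the second probe of AT2G25870 passed (limma). A probe with several genes can report a relative of the gene, so these values do not measure the genes of the group alone.

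How the arrays are scaled bears on what a higher rank means. The 75th percentile of the deposited values was lower in light, at 0.400 to 0.517 against 0.493 to 0.669 in the dark, and lower than in the dark array of the same number throughout. At the very top the order was the other way, with 2 to 5 probes at the top of the scale on the light arrays and 1 to 3 on the dark arrays, more in light within every number. The sum of values was lower in light for numbers 1 to 4 and higher for numbers 5 and 6. As deposited, with no scaling, 50 of the 57 genes had a positive log2 change, which 36.8% of the 494 single-gene probes had, and their median was 0.55 against -0.21 over all probes. The other 7 had a negative one. They were AT2G46630 (-0.21), MAMI (-0.19), AT3G51320 (-0.15), AT1G21500 (-0.10), AT2G04790 (-0.10), AT5G11650 (-0.089) and TCP15 (-0.073). Each of these was under 1.5-fold on the quantile scale, and in none did all light values lie below all dark values.

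Non-overlap was also less common without ranks. The deposited light values lay wholly above the dark values for 18 of the 57 (background 5.67% of the 494), and values divided by the array median did so for 31 (background 9.11%). Divided by the 75th percentile of the array, 51 of the 57 stayed apart (background 15.8%), and all 57 log2 changes were positive. The ranks chose the genes, so these counts are read as a description of the group under other scales and not as support for it.

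The 18 genes apart even as deposited are those with a higher deposited value on every light array than on any dark array. Since scaling by the authors is not given, those values may themselves be relative to the array. Of the named genes they hold AGL54, iqd32, PRA1.B6 and UBA1A. The locus-only ones are AT3G50270, AT2G14660, AT5G19210, AT1G54500, AT5G53920, AT5G14590, AT5G52970, AT1G32730, AT1G12100, AT1G05340, AT5G03370, AT3G06570, AT3G09080 and AT5G38360.

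**Figure D5:**
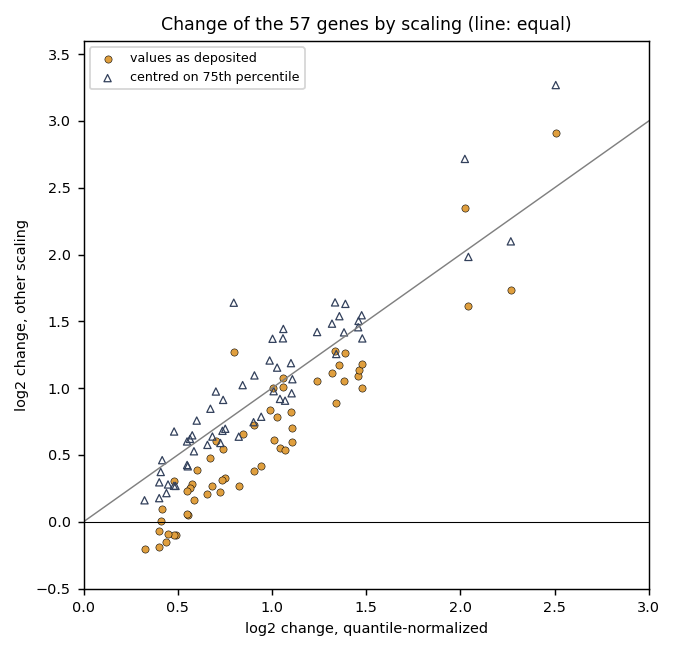
Log2 change, light minus dark, of the 57 genes on the quantile-normalized scale (x axis) against the values as deposited and values centred on the 75th percentile of each array (y axis), with a line where both are equal. As deposited, 7 genes fall below 0, and centred on the 75th percentile none do.

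Every array was the nearest to the other group for some of the 57 genes. Dark replicates 1 to 6 held the highest dark rank for 11, 18, 6, 10, 8 and 4 genes. Light replicates 1 to 6 held the lowest light rank for 5, 7, 10, 14, 10 and 11. These counts were not made over all probes, so they are not read as a trait of the group. Within a replicate number, the median log2 difference of the 57 genes was between 0.78 and 0.90 over the 6 numbers, where the rule itself fixes the positive sign. The spread between arrays was the larger in the dark for 33 genes and in light for 24, with a median SD of 0.23 and 0.19 on the log2 scale.

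Leaving out any 1 array left between 57 and 66 single-gene probes under the rule, the 57 always among them by construction. Asking only that light exceed dark within each replicate number, which treats the number as a block, gave 99 probes. With consecutive numbers averaged to 3 values per group it gave 108. Both are looser forms of the same rule on the same values, so they hold the 57 by construction and give no support to the group. Counts in the opposite direction were not made for them.

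The genes came from all 5 chromosomes, with 16 on chromosome 1, 9 on each of chromosomes 2 and 3, 5 on chromosome 4 and 18 on chromosome 5, out of 124, 89, 94, 93 and 93 single-gene probes above 0 that matched the gene table. No pair of them lay within 5 genes of each other in that table. Outside single-gene probes the same separation was seen for 66 probes with several genes and 230 probes that are not named here.

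Over the whole array, the sum of deposited values ran from 2943 to 3683, and 11.7 to 15.7% of values were 0. The limma fit over 2966 probes called 1198 at an adjusted p of 0.05 (40.4%), with 589 of them higher in light (19.9%). The split was 589 higher and 609 lower after quantile normalization, 423 and 879 as deposited, 528 and 821 with arrays centred on the median and 781 and 542 with arrays centred on the 75th percentile. None of the 57 genes was at 0 or at the top of the scale on any array. The number of arrays limits the precision.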

How the data were processed

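RNA levels of 12 samples (6 dark, 6 light) came as 1 table. The deposited values are linear intensities, 1 for each probe on each array, and end at 100. Background correction and scaling by the authors are not given in the sources used here. The members and lists were chosen with earlier results of these data known.

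Groups and replicate numbers came from sample titles. The platform annotation, an old one, gave each probe its genes, which were looked up in a gene table of assembly TAIR10.1, where 690 of 692 single-gene probes had a row. That table, not text annotation, gave the names.

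Ranks (average ties) were taken over 3439 probes. For log2 changes, quantile normalization was followed by a floor at the 1% quantile of positive values (0.0067), and probes at the floor on more than 6 of 12 arrays were left out. The light effect was fitted with limma 3.58.1 in R 4.3.3 (lmFit, eBayes, two-sided), with Benjamini-Hochberg adjustment over 2966 probes and a threshold of 0.05. The fit was tried on simulated data with independent noise and no quantile normalization, which cannot show how it handles paired arrays. No p is given for members. Figures used matplotlib 3.10.9.

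Dark and light arrays of a number deviated together (r from 0.301 to 0.557 over 1483 brighter probes), so by this check from the values, not the labels, the numbers pair the samples. The main fit had no block for the number, so its SE and adjusted p leave this pairing out. With the block 1314 probes passed, against 1198 in the main fit. For the probe of PRA1.B5 and PRA1.B4, SE went from 0.28 to 0.16 and adjusted p (limma) from 0.21 to 0.057. For the second probe of AT2G25870, adjusted p (limma) went from 0.034 to 0.047. Consecutive numbers had similar sums of deposited values, such as 2956 and 2943 for dark replicates 5 and 6, and 3604 and 3683 for 3 and 4. Their likeness probe by probe was not measured, and SE may be too small if consecutive numbers are not independent. Alternatives covered scaling, floor, filter, the replicate block, averaged consecutive numbers and left-out arrays. Leaving out numbers 1 and 2 was added after seeing the data. Genes described were those with a name in the gene table and the 5 with the widest gap. Further genes (the brightest, AT2G25870 and those below 0 as deposited) were picked after their values were seen.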

Additional observations from a re-analysis of the deposited data

Results flagged for a closer look

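Of 114 sets of 6 log2 scaled intensities (57 genes in 2 groups), 10 held an array far from the other 5 relative to the range of the set, and chance gives this in about 1 set in 20. In 3 of them the distant array lay towards the other group. Each value is set against the median of the other 5. For AT5G38360, dark replicate 1 gave 5.19 against 4.95, while light replicate 2 gave 5.29 against 5.875. RAP74 was at 1.96 in light replicate 1 against 2.31. The flags of AT5G38360 hold on the quantile scale, which gave this gene the same value on several arrays of a group. As deposited, its dark replicates 1 and 2 were at 28.5 and 27.2. Its light replicates 2 and 5 were at 47.2 and 54.6, in a group that reached 67.5.

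In the other 7 the distant array lay away from the other group and so widened the mean difference. The rule allows no overlap and so limits how far an array can lie towards the other group. The split of 3 and 7 is shaped by that, and the rate of 1 set in 20 holds for sets not chosen by a rule. In light, AT3G59300 was at 0.071 in replicate 5 against -1.28, AT5G02710 at -0.31 in replicate 1 against -0.53, and MAMI at 0.45 in replicate 3 against 0.03. In the dark, PRA1.B3 was at -1.55 in replicate 1 against -0.72, AT1G05340 at -3.79 in replicate 2 against -2.87, AT3G12930 at -2.59 in replicate 5 against -1.85, and AT2G47830 at -1.57 in replicate 1 against -1.33. Of the 10 distant arrays, 3 were dark replicate 1.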

How the results depend on the processing

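The number of genes under the rule depended on how values were compared. Against 57 by rank, 19 qualified with values as deposited (18 of them shared) and 35 with values divided by the array median (31 shared), while 65 did with the 75th percentile (51 shared). With consecutive replicate numbers averaged 108 qualified, and with the replicate block, light above dark within each number, 99. Leaving out 1 array gave 57 to 66, and the added setting without numbers 1 and 2 gave 82. The median log2 change of the 57 was 0.90, and 0.55 as deposited, 0.67 with median centring, 0.80 with the floor at the 25% quantile, 0.79 without numbers 1 and 2, and 0.85 to 0.92 with 1 array left out. Probes called over the array numbered 1198 in the main fit. They ran from 814 with consecutive numbers averaged to 1349 with median centring (1314 with the replicate block, 1100 to 1176 with 1 array left out). For single genes the sign turned as deposited for AT2G46630 (-0.21), MAMI (-0.19), AT3G51320 (-0.15), AT1G21500 (-0.10), AT2G04790 (-0.10), AT5G11650 (-0.089) and TCP15 (-0.073), and with median centring for AT2G46630 (-0.093), MAMI (-0.077) and AT3G51320 (-0.039). The other 1244 of 1254 values kept their sign. On the quantile scale the rule itself fixes the sign, also with arrays left out, so only the settings with another scaling could turn it. That count is therefore no measure of robustness. Why scalings differ was not tested. No motif or protein sequence was analysed here.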
